A study of Arabidopsis thaliana with 8 samples.

Results

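Late embryogenesis abundant (LEA) proteins are small, mostly very hydrophilic proteins that accumulate in maturing seeds and in tissues losing water. They are thought to protect membranes and other proteins during drying and freezing, and dehydrins are one family among them. Many LEA genes respond to abscisic acid (ABA) and cold, and in seeds many are switched on by maturation regulators such as ABI3 and ABI5. The members described here are the array's gene reporters (probes) whose deposited description contains the words late embryogenesis abundant or dehydrin. The rule found 63 of 27387 gene reporters, which cover 59 of 26116 gene models in 55 of 24648 genes. It used the description text and no measured value.

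The arrays compared 2 crosses of Arabidopsis thaliana, Q0990 x bdl and Q0990 x Col-0, in isolated embryos of day 3 and day 6 after pollination. Q0990, a GAL4 enhancer trap line, was the seed parent of both, so the Q0990 x Col-0 embryos carry the enhancer trap too, and the pollen parent was bdl or the wild type Col-0. BODENLOS (BDL, IAA12) is an Aux/IAA repressor of auxin response, and bdl is its stabilised form. The labels do not say whether the bdl parent carried the mutant allele or a transgene that GAL4 switches on, nor how many embryos were pooled. They give the ecotype as Col-0. Each of the 8 arrays held RNA of both crosses in its 2 channels, with 4 arrays at each day, and the series text names 4 biological replicates.

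The deposited values were 1 intensity per channel and spot. Median intensities per channel were between 226 and 526 over all arrays. Both BDL gene models were higher in Q0990 x bdl on both days, with log2 ratios of 0.16 and 1.21 on day 3 and of 0.57 and 1.25 on day 6 (limma adjusted p between 1.03e-05 and 0.0385). The probes cannot tell bdl transcripts from wild-type BDL transcripts. Ratios of the 4 arrays of a day correlated across gene models at r = 0.564 to 0.776 on day 3 and 0.731 to 0.871 on day 6, a description across gene models that are not independent. On day 3, 13 of 14 tested embryo marker models were lower in Q0990 x bdl, 9 of 11 endosperm marker models were higher and 11 of 16 seed coat marker models were higher. The summed intensity of the embryo list was 44396 to 63995 in Q0990 x bdl and 77939 to 103138 in Q0990 x Col-0 on day 3. That of the endosperm list was 22189 to 41503 in Q0990 x bdl and 15138 to 30436 in Q0990 x Col-0, and that of the seed coat list 118515 to 235346 in Q0990 x bdl and 87779 to 143997 in Q0990 x Col-0. On day 6 the lists were less one-sided, with 6 embryo models higher and 4 lower of 15, 4 endosperm models higher and 0 lower of 10, and 3 seed coat models higher and 4 lower of 16. Over all models, 20.8% were higher and 20.9% lower on day 3, and 16.2% and 19.3% on day 6. Day 6 sums in Q0990 x bdl and Q0990 x Col-0 were 27163 to 72002 and 23552 to 59406 for embryo, 4238 to 12939 and 3698 to 10835 for endosperm, and 12280 to 31691 and 10813 to 25358 for seed coat. No marker was at the level of the blank spots on every day 3 array, while AGL36, FIS2, TT16 and WOX2 were so on day 6. The part of these lists in the LEA values was not tested.

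By the published family scheme, 45 of the 59 gene models (41 genes) belong to LEA families. LEA_4 is the largest of these with 17 models, followed by 9 dehydrin models, 5 of the seed maturation protein family (SMP), 4 each of LEA_2 and LEA_3, 3 of LEA_1, 2 AtM models and 1 of the PvLEA18 family. The other 14 models came in through similarity statements in their descriptions. They comprise 8 described as LEA protein-related, 3 EMB8-like hydrolases or proteases, 2 F-box genes and 1 AWPM-19-like membrane protein. A reporter was tested if it exceeded the 95th percentile of the array's blank spots on at least 4 of its 16 signals. This percentile lay between 27.4 and 87.5 on day 3 and between 68.4 and 366 on day 6. It was highest on day 6 replicate 4, at 256 in Q0990 x bdl and 366 in Q0990 x Col-0, beside channel medians of 315 and 321. A signal can thus miss it there without being low for that array. The filter left 34 members with tests on both days, 1 on day 3 alone (AT5G53260) and 3 on day 6 alone (AtLEA4-1, FBS1 and COR15A model 1). A further 17 had values that were too dim, and 4 had no value on either day (AT1G52680, AT3G53770, UNE15 and AT5G53270). The dim ones include ECP63, ATECP31, M10, M17, LEA18 and LEA3. The filter can keep a member that is bright in 1 cross or day alone, so counts over the tested members are descriptions.

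The comparison of the crosses asks whether LEA transcripts differ between the embryo samples of Q0990 x bdl and Q0990 x Col-0. These samples also held endosperm and seed coat transcripts, whose marker models were mostly higher in Q0990 x bdl on day 3. Their part in the LEA ratios was not tested. On day 3 the differences were modest. Of 35 tested members, 11 were higher in Q0990 x bdl at a limma adjusted p under 0.05, beside 20.8% of all 20242 tested models, and 5 were lower, beside 20.9%. At a fold of at least 1.5 these were 2 higher (3.67% of all models) and 2 lower (2.83%). Without day 3 replicate 2, 3 members were lower. On day 6 the calls lay mostly on the lower side: 3 of 37 members were higher, beside 16.2% of all 20660 models, and 12 were lower, beside 19.3%. At a fold of at least 1.5, 1 was higher (1.04% of all models) and 8 were lower (4.4%). The median log2 ratio of the tested members was 0.08 on day 3 and -0.09 on day 6, against 0.00 on both days over all models. In bulk RNA, fewer cells of a type and less RNA per cell cannot be told apart.

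**Figure D1:**
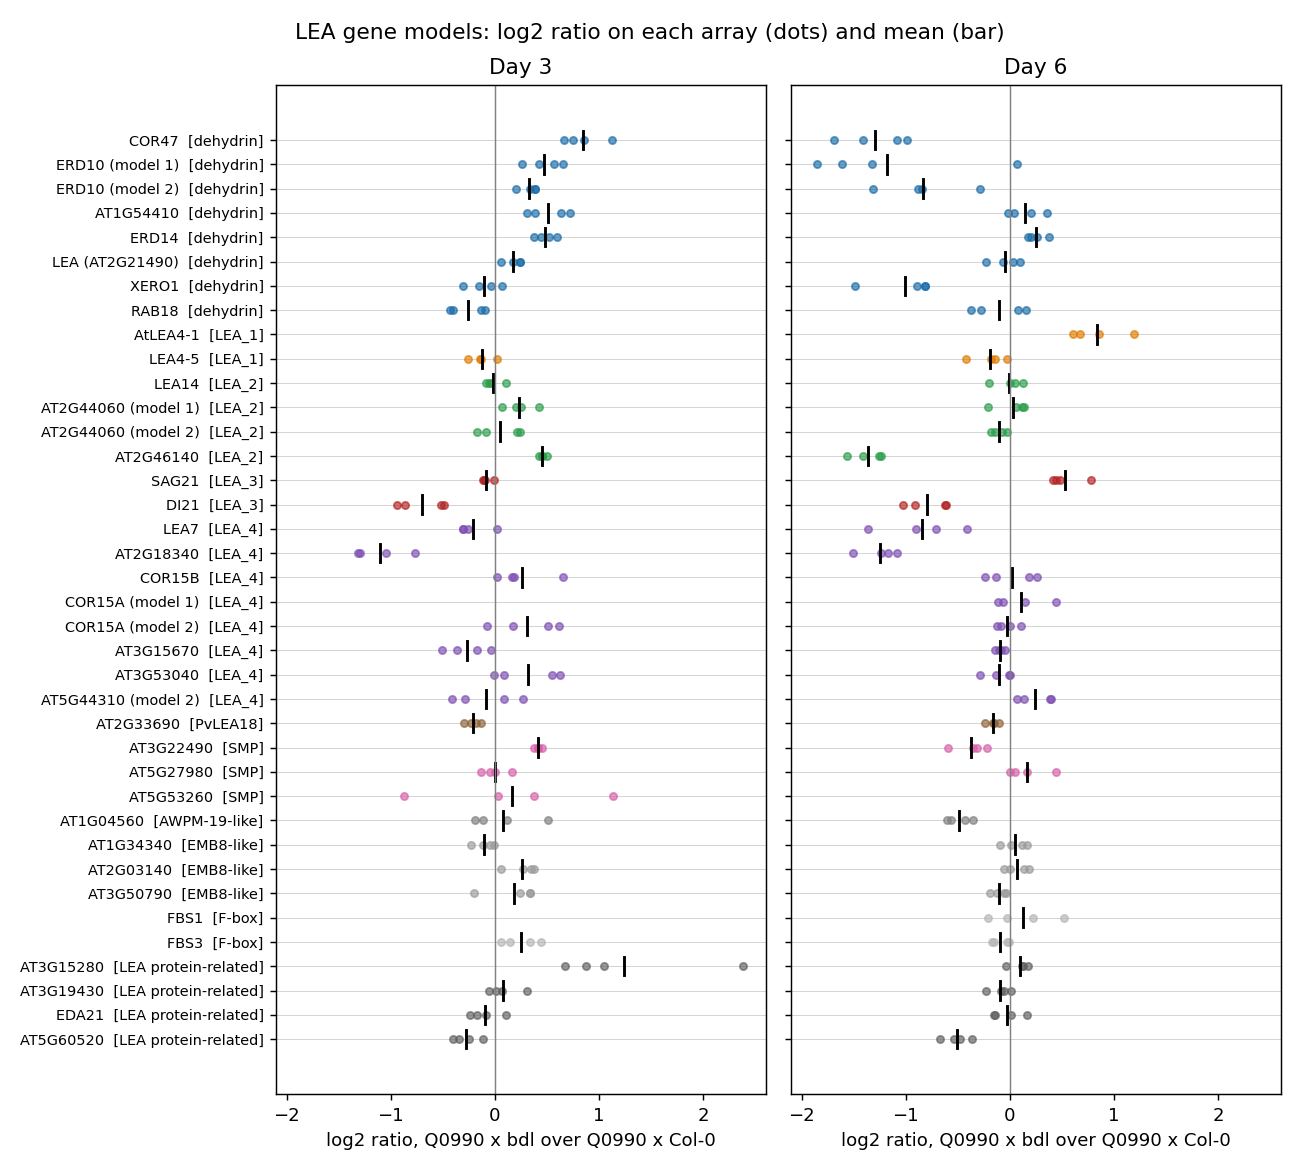
Log2 ratio of Q0990 x bdl to Q0990 x Col-0 on each array (dots) and the mean over 4 arrays (black bars) for the 38 LEA gene models tested on at least 1 day, on day 3 (left) and day 6 (right). Colours mark families. COR47, ERD10 and AT2G46140 lie to the right of 0 on day 3 and to the left on day 6, apart from 1 array of ERD10 model 1.

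The dehydrins held the widest swing between days. COR47, an acidic dehydrin induced by cold, had intensities of 175, 356, 336 and 312 in Q0990 x bdl on day 3, against 92.1, 137, 163 and 167 in Q0990 x Col-0. Its day 6 intensities were 60.8, 112, 164 and 144 in Q0990 x bdl, against 169, 469, 404 and 462 in Q0990 x Col-0. The 2 crosses did not overlap on either day, and their order turned round between days. COR47 was 1.80-fold higher in Q0990 x bdl on day 3 (log2 0.85 ± 0.202 SD, n = 4 arrays, limma adjusted p = 9e-04) and 2.45-fold lower on day 6 (log2 -1.29 ± 0.319 SD, n = 4, limma adjusted p = 0.000159). The day 6 ratio was lower than the day 3 ratio by a log2 difference of -2.14 (95% interval -2.54 to -1.75, limma adjusted p = 7.52e-05). In Q0990 x bdl on day 6, 2 of its 4 signals lay above the blank spots.

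ERD10, the dehydrin gene next to COR47 on chromosome 1, followed the same course on 2 gene models. Model 2 had intensities of 215, 189, 209 and 197 in Q0990 x bdl on day 3, against 179, 134, 148 and 147 in Q0990 x Col-0. Day 6 gave it 179.6, 145, 205 and 333 in Q0990 x bdl, against 228, 432, 420.0 and 634 in Q0990 x Col-0. All 4 ratios were above 0 on day 3 and all 4 were below 0 on day 6. The day 3 log2 ratio of 0.33 ± 0.0855 (SD, n = 4) did not pass the limma test (adjusted p = 0.0904), and the day 6 ratio of -0.83 ± 0.424 (SD, n = 4) did (limma adjusted p = 0.00241). Without day 6 replicate 1 the day 3 ratio passed too (limma adjusted p = 0.00771), as it did without day 6 replicate 2 (limma adjusted p = 0.0281). With all arrays kept it passed when each day was fitted alone (limma adjusted p = 0.0239). The dye orientation read from the deviations gave a pass as well (limma adjusted p = 0.0492). Model 1, the mean of 2 reporters, gave a log2 ratio of 0.47 ± 0.173 (SD, n = 4) on day 3 (limma adjusted p = 0.181) and of -1.18 ± 0.859 (SD, n = 4) on day 6 (limma adjusted p = 0.00925). Its 2 reporters agreed, with mean log2 ratios of 0.49 and 0.45 on day 3 and of -1.18 each on day 6. On day 6 replicate 1 model 1 was dim in both channels, with intensities of 20.5 in Q0990 x bdl and 17.04 in Q0990 x Col-0 and a log2 ratio of 0.07. The other day 6 arrays gave ratios of -1.61, -1.32 and -1.85. Without day 6 replicate 4 its day 6 call was lost (limma adjusted p = 0.0523), and without day 6 replicate 1 its day 3 ratio passed (limma adjusted p = 0.00584). The day 3 ratio of model 1 also passed when each day was fitted alone (limma adjusted p = 0.0101).

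XERO1, another dehydrin, differed between the crosses on day 6. On day 3 it had intensities of 728, 911, 1077 and 1229 in Q0990 x bdl, against 748, 1144, 1024 and 1376 in Q0990 x Col-0, and the ratio took both signs (log2 -0.11 ± 0.162 SD, n = 4, limma adjusted p = 0.449). On day 6 it had 1800.4, 595, 999.8 and 1193 in Q0990 x bdl, against 5038, 1072, 1773 and 2232 in Q0990 x Col-0. Each of the 4 arrays had the Q0990 x bdl channel lower, although the intensities of the crosses overlapped across arrays. XERO1 was 2.00-fold lower in Q0990 x bdl on day 6 (log2 -1.003 ± 0.325 SD, n = 4, limma adjusted p = 0.000268), and the difference between days passed as well (log2 -0.90, limma adjusted p = 0.00200).

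ERD14 and AT1G54410, 2 further dehydrins, were higher in Q0990 x bdl on day 3. ERD14 had intensities of 4934, 4364, 7139 and 6366 in Q0990 x bdl on day 3, against 3806, 3011, 5298 and 4146 in Q0990 x Col-0. Its day 6 intensities were 1308, 1053, 338 and 1013 in Q0990 x bdl, against 976, 919, 273 and 863 in Q0990 x Col-0. The ratio was above 0 on all 8 arrays, with log2 values of 0.49 ± 0.0956 on day 3 (limma adjusted p = 0.000343) and 0.25 ± 0.0926 on day 6 (SD, n = 4 each, limma adjusted p = 0.0102). Its day 6 call was lost without day 6 replicate 1 (limma adjusted p = 0.0526). AT1G54410 had 2139, 4362, 3934 and 3883 in Q0990 x bdl on day 3, against 1623, 2787, 3169 and 2313 in Q0990 x Col-0 (log2 0.51 ± 0.198 SD, n = 4, limma adjusted p = 0.00224). Its day 6 intensities were 344, 189, 262 and 209.5 in Q0990 x bdl and 255, 181, 220.4 and 211 in Q0990 x Col-0, with ratios from -0.01 to 0.36 on the 4 arrays (log2 0.15 ± 0.168 SD, n = 4, limma adjusted p = 0.228). With the dye orientation read from the deviations, the day 6 ratio of AT1G54410 passed (limma adjusted p = 0.0181). The differences between days, -0.23 for ERD14 and -0.36 for AT1G54410, lay at the threshold (limma adjusted p = 0.0499 and 0.0460). For ERD14 the call was lost when any 1 of day 3 replicates 2, 3 and 4 or day 6 replicates 2, 3 and 4 was left out (limma adjusted p up to 0.131). It was also lost with all arrays kept, with no offset, normexp, no loess, no filter or the brightest reporter (limma adjusted p between 0.0500057 and 0.0957). For AT1G54410 it was lost without day 3 replicate 2 or 4 or day 6 replicate 2, 3 or 4 (limma adjusted p up to 0.127), and with no offset (limma adjusted p = 0.100).

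The last 2 tested dehydrins moved little. RAB18, a dehydrin gene widely used as a readout of ABA response, had day 3 intensities of 4819, 5375, 4922 and 3689 in Q0990 x bdl and 5320, 7036, 5292 and 4936 in Q0990 x Col-0. Day 6 gave it 3942, 3828, 3683 and 3637 in Q0990 x bdl and 5013, 3646, 4394 and 3256 in Q0990 x Col-0. The crosses overlapped on both days, and neither log2 ratio passed the test (-0.26 with limma adjusted p = 0.0725 on day 3, -0.11 with limma adjusted p = 0.458 on day 6). AT2G21490, which carries the symbol LEA, was 1.13-fold higher in Q0990 x bdl on day 3 (log2 0.18, limma adjusted p = 0.0311) and had a log2 ratio of -0.04 on day 6 (limma adjusted p = 0.568). Of the 8 tested dehydrin models, 4 were higher and 0 lower in Q0990 x bdl on day 3, and 1 was higher and 4 were lower on day 6. Over all models, 20.8% were higher and 20.9% lower on day 3, and 16.2% and 19.3% on day 6. The dehydrin counts include both models of ERD10, each among the lower ones on day 6. The median log2 ratio of the tested dehydrin models was 0.40 on day 3 and -0.47 on day 6.

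**Figure D2:**
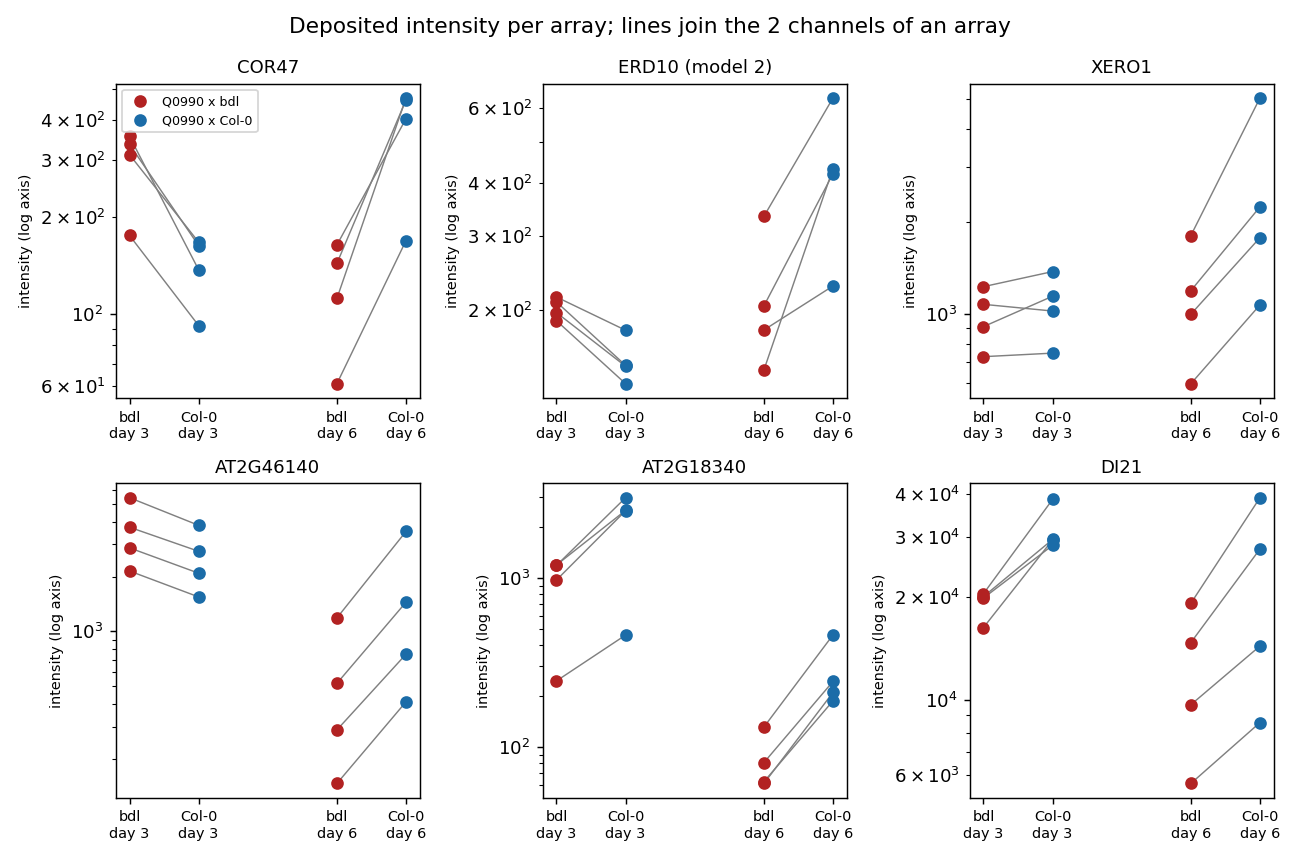
Deposited intensity on a log axis for 6 LEA gene models, with Q0990 x bdl (red) left of Q0990 x Col-0 (blue) on each day and a line joining the 2 channels of each array (4 arrays a day). Lines of COR47, ERD10 model 2 and AT2G46140 slope down on day 3 and up on day 6, those of XERO1 slope up on all 4 day 6 arrays, and those of AT2G18340 and DI21 slope up on all 8 arrays.

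LEA_2 proteins are the least hydrophilic LEA family. Among them AT2G46140 also turned round between days. It had intensities of 2874, 2146, 5418 and 3730.2 in Q0990 x bdl on day 3, against 2087, 1547, 3821 and 2752 in Q0990 x Col-0. On day 6 it had 1186, 147, 519 and 288 in Q0990 x bdl, against 3538, 411, 1448 and 750.5 in Q0990 x Col-0. Levels varied several-fold from array to array on day 6, while the ratio within each array did not, from -1.56 to -1.24. AT2G46140 was 1.37-fold higher in Q0990 x bdl on day 3 (log2 0.46 ± 0.0343 SD, n = 4, limma adjusted p = 0.000677) and 2.58-fold lower on day 6 (log2 -1.37 ± 0.152 SD, n = 4, limma adjusted p = 5.95e-06). The difference between days was -1.82 (95% interval -2.02 to -1.62, limma adjusted p = 1.12e-05), with the day 3 and day 6 arrays on opposite sides of 0.

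The other LEA_2 models showed small ratios. LEA14 lay at log2 -0.02 on day 3 and -0.01 on day 6 (95% intervals -0.16 to 0.13 and -0.15 to 0.14), and exceeded the blank spots on 1 of 4 arrays in each cross and day. AT2G44060 model 1 was 1.18-fold higher in Q0990 x bdl on day 3 (log2 0.24, limma adjusted p = 0.0205) and near 0 on day 6 (log2 0.03, limma adjusted p = 0.790). A different reporter gave its values on each day, so its difference between days, which did not pass (log2 -0.21, limma adjusted p = 0.105), also compares 2 reporters. Model 2 of the same gene had log2 ratios of 0.05 and -0.11, and neither passed the test (limma adjusted p = 0.649 on day 3 and 0.297 on day 6).

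Among LEA_4 genes, which form the largest family, AT2G18340 was lower in Q0990 x bdl on both days. It had intensities of 1187, 246, 973 and 1195 in Q0990 x bdl on day 3, against 2988, 459.8, 2502 and 2513 in Q0990 x Col-0. Its day 6 intensities were 131, 60.9, 62.3 and 80.9 in Q0990 x bdl, against 461, 210.4, 188 and 245 in Q0990 x Col-0. All 8 ratios were below -0.7, and the crosses did not overlap on day 6. The log2 ratio was -1.11 ± 0.257 on day 3 (2.16-fold, limma adjusted p = 0.000115) and -1.25 ± 0.180 on day 6 (2.38-fold, SD, n = 4 each, limma adjusted p = 9.12e-05). Its 2 ratios differed by -0.14 (95% interval -0.47 to 0.19, limma adjusted p = 0.470). On day 6 it exceeded the blank spots on 1 array in Q0990 x bdl and on 3 in Q0990 x Col-0, so the day 6 fold is set against a channel near background.

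LEA7, also of LEA_4, had intensities of 162, 180.4, 270.1 and 193 in Q0990 x bdl on day 3, against 210.5, 236, 333 and 192 in Q0990 x Col-0. Day 6 gave it 106, 54.6, 79.1 and 229.9 in Q0990 x bdl, against 349.95, 122, 190.1 and 320.2 in Q0990 x Col-0. Q0990 x bdl was the lower channel on every day 6 array, and on 3 of the 4 day 3 arrays. On day 6 LEA7 exceeded the blank spots on 2 of 4 arrays in each cross, replicates 1 and 3. The day 6 log2 ratio of -0.85 ± 0.399 (SD, n = 4) passed the test (1.80-fold, limma adjusted p = 0.00102). The day 3 ratio of -0.21 ± 0.154 did not (SD, n = 4, limma adjusted p = 0.179). The difference between days of -0.63 passed (limma adjusted p = 0.0159), but not without day 6 replicate 3 (limma adjusted p = 0.0525).

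The cold-regulated pair COR15A and COR15B, which encode chloroplast proteins that protect membranes during freezing, gave no call between crosses in the main fit. COR15B had day 3 intensities of 35.6, 22.1, 50.04 and 23.9 in Q0990 x bdl, against 35.5, 8.83, 10.8 and 14.8 in Q0990 x Col-0. It exceeded the blank spots on 1 of 4 arrays in each cross on day 3, and its log2 ratios were 0.26 and 0.02 (limma adjusted p = 0.108 on day 3 and 0.930 on day 6). With the dye orientation read from the deviations, the day 3 ratio of COR15B passed (limma adjusted p = 0.0487). COR15A model 2 had log2 ratios of 0.31 and -0.02 (limma adjusted p = 0.0516 on day 3 and 0.888 on day 6). The remaining LEA_4 calls were small and came on day 3. AT3G53040 was 1.24-fold higher in Q0990 x bdl (log2 0.31, limma adjusted p = 0.0448) and AT3G15670 1.21-fold lower (log2 -0.27, limma adjusted p = 0.0214). AT3G15670 exceeded the blank spots on 2 of 4 day 3 arrays in each cross.

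The LEA_3 genes DI21 and SAG21 went apart on day 6. DI21, induced by drought, had intensities of 16271.5, 19859, 20449 and 20048 in Q0990 x bdl on day 3, against 29423, 28352, 38660.4 and 29497 in Q0990 x Col-0, with no overlap. On day 6 it had 9662, 19165, 5676 and 14703 in Q0990 x bdl, against 14365, 39118, 8567 and 27666 in Q0990 x Col-0. All 8 arrays were lower in Q0990 x bdl, with log2 ratios of -0.70 ± 0.232 on day 3 (1.63-fold, limma adjusted p = 0.00101) and -0.80 ± 0.208 on day 6 (1.74-fold, SD, n = 4 each, limma adjusted p = 0.000745). SAG21, a senescence-associated gene, had 2415, 809, 1710.5 and 1237 in Q0990 x bdl on day 6, against 1359.7, 558, 1226 and 902 in Q0990 x Col-0. It was higher on each day 6 array (log2 0.53 ± 0.169 SD, n = 4, limma adjusted p = 0.000391), and lay at -0.08 ± 0.0517 on day 3 (SD, n = 4, limma adjusted p = 0.315). SAG21 was the 1 member with a higher ratio on day 6 than on day 3 at the threshold (log2 difference 0.61, limma adjusted p = 0.000877).

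In LEA_1, AtLEA4-1 was measured on day 6 alone. It had intensities of 696, 161, 134 and 321 in Q0990 x bdl, against 273, 81.6, 70.4 and 154 in Q0990 x Col-0, and every array was higher in Q0990 x bdl. The 1.78-fold difference (log2 0.83 ± 0.263 SD, n = 4) passed the test (limma adjusted p = 0.00313). AtLEA4-1 exceeded the blank spots on 4 arrays in Q0990 x bdl and on 1 in Q0990 x Col-0, so it passed the filter mostly through the cross in which it was higher, and the fold is set against a channel near background. LEA4-5, of the same family, had log2 ratios of -0.13 and -0.19 that missed the threshold (limma adjusted p = 0.175 on day 3 and 0.0586 on day 6).

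In the SMP family, AT3G22490 turned round like COR47, by smaller steps. It had intensities of 174, 202, 257 and 200.1 in Q0990 x bdl on day 3, against 118, 135, 179.9 and 144 in Q0990 x Col-0. Its day 6 intensities were 130.1, 59.2, 118 and 95.1 in Q0990 x bdl, against 221, 86.0, 145 and 135 in Q0990 x Col-0. All 4 ratios were above 0 on day 3 and below 0 on day 6. On day 6 it exceeded the blank spots on 2 of 4 arrays in each cross, replicates 1 and 3. The log2 ratios were 0.41 ± 0.0303 on day 3 (limma adjusted p = 0.00110) and -0.37 ± 0.158 on day 6 (SD, n = 4 each, limma adjusted p = 0.00246), and their difference of -0.79 passed (limma adjusted p = 0.000317). ATECP31, its neighbour on chromosome 3 and also an SMP gene, had no value on day 3 and was too dim to test on day 6. AT2G33690, the PvLEA18 member, was slightly lower in Q0990 x bdl on both days (log2 -0.21 ± 0.0696 on day 3 and -0.17 ± 0.0530 on day 6, SD, n = 4 each, limma adjusted p = 0.00843 and 0.0278).

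Of the members outside the published families, AT3G15280 differed most on day 3. It had intensities of 571, 304, 636 and 857 in Q0990 x bdl on day 3, against 338, 144, 81.2 and 392.5 in Q0990 x Col-0. The ratios were 0.67, 0.87, 2.38 and 1.05, with replicate 3 far above the others. The 2.37-fold difference passed the test (log2 1.24 ± 0.774 SD, n = 4, limma adjusted p = 0.00237). On day 6 it had between 10.05 and 63.4 in Q0990 x bdl and between 6.56 and 54.1 in Q0990 x Col-0, and no signal passed the blank spots, so no fold is given for that day. AT5G60520 was lower in Q0990 x bdl on all 8 arrays (log2 -0.28 ± 0.127 on day 3 and -0.51 ± 0.128 on day 6, SD, n = 4 each, limma adjusted p = 0.0115 and 0.000805). AT1G04560, the AWPM-19-like gene, took both signs on day 3 (log2 0.08 ± 0.316 SD, n = 4, limma adjusted p = 0.600) and was lower on every day 6 array (log2 -0.49 ± 0.115 SD, n = 4, limma adjusted p = 0.0100). FBS3, an F-box gene, and AT2G03140, an EMB8-like gene, were 1.19-fold and 1.20-fold higher in Q0990 x bdl on day 3 (limma adjusted p = 0.0202 and 0.00892). On day 6 their log2 ratios of -0.09 and 0.07 did not pass the test (limma adjusted p = 0.333 and 0.436). The other 5 tested members of this kind, EDA21 among them, gave no call between crosses on a day they were tested.

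**Figure D3:**
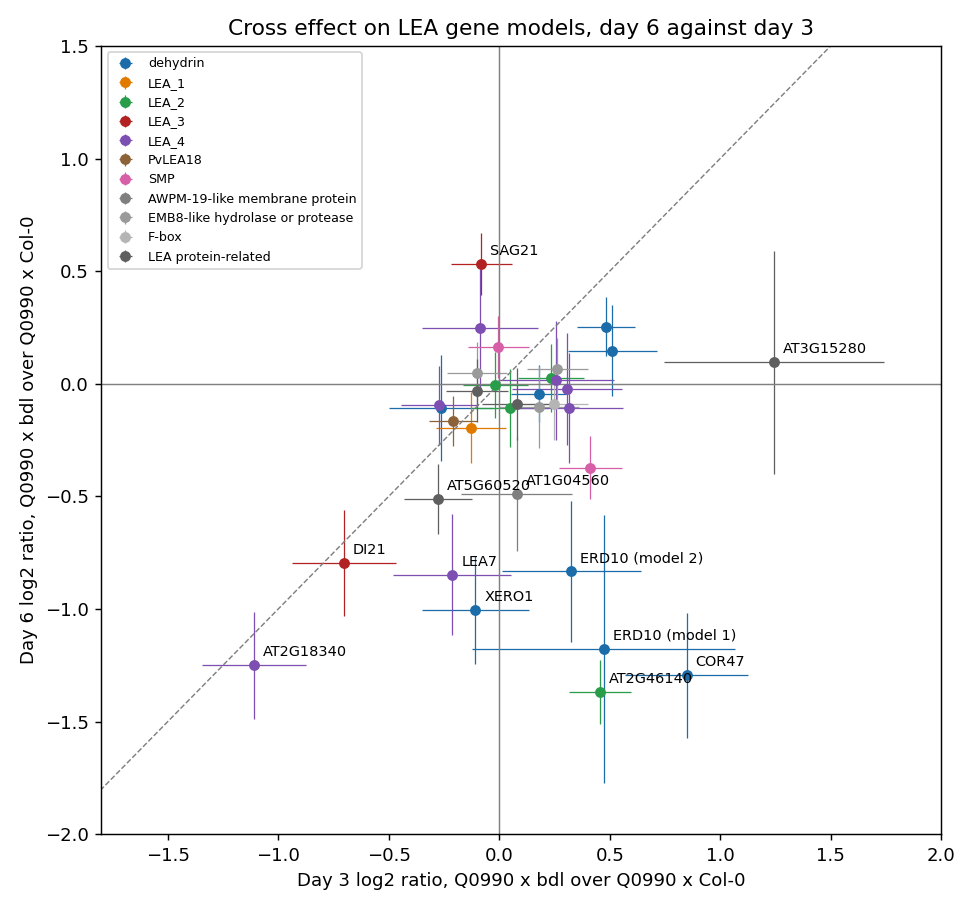
Log2 ratio of Q0990 x bdl to Q0990 x Col-0 on day 6 (vertical axis) against day 3 (horizontal axis) for the 34 LEA gene models tested on both days, with 95% limma intervals and colours by family. The dashed line marks equal ratios, and COR47, AT2G46140 and both ERD10 models lie below 0 on day 6 and above 0 on day 3. AT3G15280 and AT3G53040 had no day 6 signal above the blank spots.

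The test of the cross effect on day 6 minus that on day 3 gave 13 lower and 1 higher among 34 members, beside 21.7% lower and 19.5% higher of all 19965 models. Leaving out day 6 replicate 3 gave 7 lower members, leaving out day 6 replicate 4 gave 8, and leaving out day 3 replicate 4 gave 2 higher ones. The median difference was -0.23 for the tested members and -0.01 over all models. Dehydrins made up 7 of the 13, namely COR47, both models of the ERD10 gene, XERO1, AT1G54410, ERD14 and AT2G21490. The difference of AT2G21490 (log2 -0.22, limma adjusted p = 0.0499) lay at the threshold, like those of ERD14 and AT1G54410. Of its 4 day 6 signals in Q0990 x Col-0, 1 passed the blank spots. The other 6 were AT2G46140, LEA7, AT3G22490, AT1G04560, FBS3 and AT3G15280. Of these 13, COR47, AT2G46140 and AT3G22490 were called on both days with opposite signs. AT3G15280 entered this count with no day 6 signal above the blank spots in either cross, so the size of its difference is not given here.

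The change from day 3 to day 6 within a cross was read from the separate channels of different arrays, so it carries the spread between arrays. In Q0990 x bdl, 1 of 33 members was higher on day 6 (15.8% of all 19933 models) and 7 were lower (15.4%). In Q0990 x Col-0, 3 were higher (13.4%) and 3 were lower (12.7%). The count of rises in Q0990 x bdl was 0 without day 3 replicate 1, 3 or 4 or day 6 replicate 1, 3 or 4, and 2 without day 6 replicate 2. In Q0990 x Col-0 it was 0 without day 3 replicate 1 or 3, and 1 without day 3 replicate 4 or day 6 replicate 4. The median log2 change was -0.09 in Q0990 x bdl and 0.01 in Q0990 x Col-0, against 0.07 and 0.08 over all models. Storage protein and oil body genes, whose products fill the maturing seed, went up on day 6 in the same fits. Of 14 tested models on that list, 10 rose in Q0990 x bdl and 9 in Q0990 x Col-0, with none called lower and a median log2 change of 2.53 in Q0990 x bdl and 2.44 in Q0990 x Col-0. OLEO4, an oleosin gene, had the largest of these changes, a log2 of 6.79 in Q0990 x bdl and 6.68 in Q0990 x Col-0 (limma adjusted p = 2.41e-11 and 3.43e-11).

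The 3 members that fell in both crosses were AT1G54410, ERD14 and AT2G18340. AT1G54410 had normalised log2 levels of 8.20, 8.20, 8.50 and 7.91 on day 6 in Q0990 x bdl, against 11.33, 12.15, 11.59 and 11.68 on day 3. In Q0990 x Col-0 it had 7.84, 8.16, 8.29 and 7.92 on day 6, against 10.95, 11.52, 11.28 and 10.96 on day 3. The days did not overlap in either cross. The log2 change was -3.49 in Q0990 x bdl and -3.12 in Q0990 x Col-0 (SE 0.315 each, limma adjusted p = 3.62e-07 and 1.85e-06), or 11.2-fold and 8.71-fold. On day 6 AT1G54410 exceeded the blank spots on 3 of 4 arrays in Q0990 x bdl and on 2 of 4 in Q0990 x Col-0. ERD14 changed by -2.52 in Q0990 x bdl and -2.29 in Q0990 x Col-0 (SE 0.328 each, limma adjusted p = 2.09e-05 and 7.61e-05). AT2G18340 changed by -2.69 in Q0990 x bdl and -2.55 in Q0990 x Col-0 (SE 0.455 each, limma adjusted p = 0.000268 and 0.000586). Endosperm and seed coat markers fell over the same interval, with 7 of 10 endosperm and 11 of 16 seed coat models lower in Q0990 x bdl, and 5 of 10 and 11 of 16 lower in Q0990 x Col-0. Of the embryo markers, 4 of 14 were lower in Q0990 x bdl and 9 of 14 in Q0990 x Col-0. Their part in these changes was not tested.

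**Figure D4:**
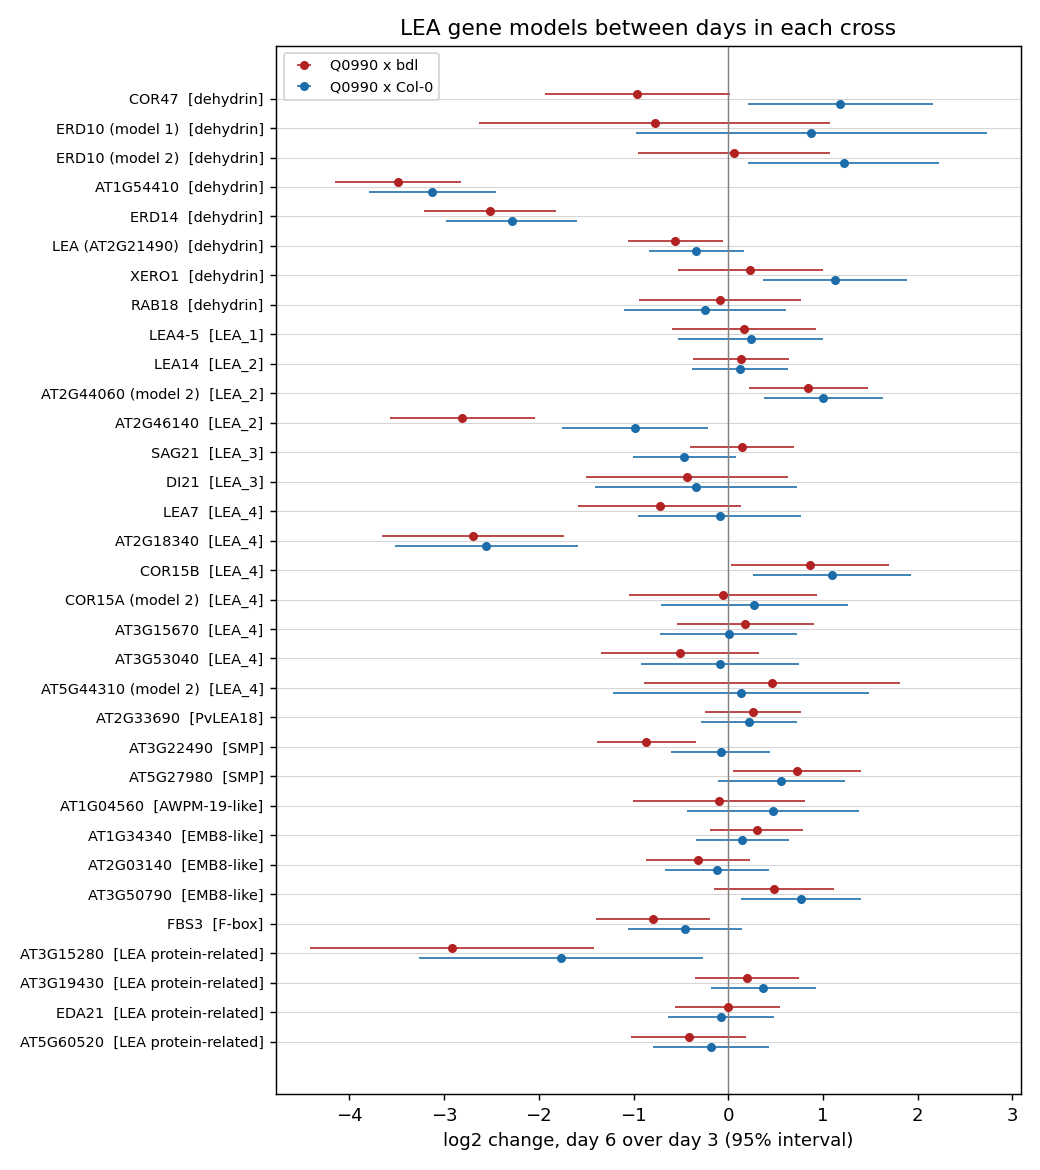
Fitted log2 change of day 6 over day 3 with its 95% interval for 33 LEA gene models in Q0990 x bdl (red, upper) and Q0990 x Col-0 (blue, lower). AT1G54410, ERD14 and AT2G18340 lie between -3.49 and -2.29 in both crosses, and AT2G46140 lies at -2.81 in Q0990 x bdl and -0.98 in Q0990 x Col-0. The day 6 signals of AT3G15280 all lay below the blank spots, so its points are no measured folds.

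AT2G46140, AT3G22490, FBS3 and AT3G15280 fell in Q0990 x bdl by the test. AT2G46140 had log2 levels of 9.53, 7.98, 9.497 and 8.38 on day 6 in Q0990 x bdl, against 11.73, 11.21, 12.05 and 11.62 on day 3, with no overlap. Its log2 change was -2.81 in Q0990 x bdl (SE 0.363, limma adjusted p = 1.98e-05) and -0.98 in Q0990 x Col-0 (limma adjusted p = 0.0572, and 0.0148 without day 6 replicate 1 or 0.0335 without day 6 replicate 3). AT3G22490 changed by -0.87 in Q0990 x bdl (limma adjusted p = 0.0130) and by -0.08 in Q0990 x Col-0 (limma adjusted p = 0.843). FBS3 changed by -0.79 (limma adjusted p = 0.0444) and -0.46 (limma adjusted p = 0.260) in Q0990 x bdl and Q0990 x Col-0. AT3G15280 was at least 3.96-fold lower on day 6 in Q0990 x bdl (limma adjusted p = 0.00485), a bound set against the dimmest signals above the blank spots. AT3G15280 passed the filter through its day 3 signals alone, the day on which it was higher, so its call between days is a description. In Q0990 x Col-0 its change missed the threshold (limma adjusted p = 0.0774), and passed without day 3 replicate 3 (limma adjusted p = 0.000576).

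XERO1, COR15B and AT2G44060 model 2 rose in Q0990 x Col-0. XERO1 had log2 levels of 11.53, 10.68, 11.21 and 11.26 on day 6, against 9.81, 10.39, 9.73 and 10.24 on day 3 in Q0990 x Col-0, with no overlap. In Q0990 x bdl it had 10.04, 9.86, 10.40 and 10.37 on day 6, against 9.77, 10.08, 9.80 and 10.09 on day 3, and the days overlapped. The log2 change was 0.23 in Q0990 x bdl (limma adjusted p = 0.668) and 1.13 in Q0990 x Col-0 (limma adjusted p = 0.0301), where the call was lost without day 3 replicate 1, 3 or 4 or day 6 replicate 3 or 4 (limma adjusted p up to 0.125). COR15B changed by 0.86 in Q0990 x bdl (limma adjusted p = 0.110) and by 1.10 in Q0990 x Col-0 (limma adjusted p = 0.0496, up to 0.146 without 1 array, the highest without day 6 replicate 1). It kept the call without day 6 replicate 2 or 3. AT2G44060 model 2 rose by 0.85 in Q0990 x bdl and 1.00 in Q0990 x Col-0 (limma adjusted p = 0.0387 and 0.0196). Without day 3 replicate 1, 3 or 4 or day 6 replicate 1 it passed in neither cross, and without day 6 replicate 3 or 4 it did not pass in Q0990 x bdl (limma adjusted p up to 0.129). These 3 rises lay close to the threshold, and their calls were lost when any of several different arrays was left out. COR15B also lost its call with all arrays kept, with no offset, no filter, the brightest reporter, quantile normalization or the dye orientation read from the deviations (limma adjusted p between 0.0508 and 0.0612). COR47 had log2 changes of -0.96 in Q0990 x bdl and 1.18 in Q0990 x Col-0 that missed the threshold (limma adjusted p = 0.129 and 0.0700), and its Q0990 x Col-0 change passed without day 6 replicate 1 (log2 1.57, limma adjusted p = 0.00995). For ERD10, the Q0990 x Col-0 change passed without day 6 replicate 1 on both models (log2 1.58 each, limma adjusted p = 0.00385 for model 1 and 0.000554 for model 2).

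Genes that regulate seed maturation moved in another pattern between the crosses. Of 13 tested models on that list, 2 were higher and 5 lower in Q0990 x bdl on day 3, and 4 were higher and 0 lower on day 6, and 7 had a higher ratio on day 6 than on day 3 with 0 lower. Over all models, 20.8% were higher and 20.9% lower on day 3, and 16.2% and 19.3% on day 6. For the difference between days these shares were 19.5% and 21.7%. ABI3, a B3 domain regulator of maturation, had log2 ratios of -1.04 on day 3 and 0.09 on day 6 (limma adjusted p = 1.33e-05 and 0.216). FUS3, a related regulator, had -0.53 on day 3 and 0.29 on day 6 (limma adjusted p = 5.52e-05 and 0.00132). L1L, a homologue of LEC1, lay at 0.00 on day 3 and 0.63 on day 6 (limma adjusted p = 0.993 and 0.000150). ABI5, a bZIP factor that acts on LEA genes, had log2 ratios of -0.06 and 0.08 (limma adjusted p = 0.553 and 0.420).

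The ABA list covers synthesis, perception and signalling. Among its tested models, 6 were higher and 3 lower of 15 on day 3, and 3 were higher and 4 lower of 16 on day 6. Over all models, 20.8% were higher and 20.9% lower on day 3, and 16.2% and 19.3% on day 6. Apart from the 6 higher on day 3, the counts of the list lay near these shares. NCED6 and AAO3, which act in ABA synthesis, were higher in Q0990 x bdl on day 3 (log2 0.81 and 0.61, limma adjusted p = 4.87e-05 and 3.96e-05). AAO3 was slightly lower on day 6 (log2 -0.15, limma adjusted p = 0.0286). AHG1 and AHG3, protein phosphatases that hold ABA signalling down, were lower on both days, with log2 ratios of -0.47 and -0.62 for AHG1 and -0.46 and -0.28 for AHG3 (limma adjusted p between 0.000307 and 0.00815). The other phosphatases of this kind on the list did not share that course. HAB1 and ABI2 were higher in Q0990 x bdl on day 3 (log2 0.48 each, limma adjusted p = 0.000190 and 0.00518) and had log2 ratios of 0.01 and 0.18 on day 6 (limma adjusted p = 0.947 and 0.183). ABI1 passed on neither day (log2 -0.03 and -0.08, limma adjusted p = 0.702 and 0.345). SNRK2.3, a kinase of ABA signalling, was higher on day 6 (log2 0.47, limma adjusted p = 0.000941), and AFP1, which binds ABI5, was lower (log2 -0.77, limma adjusted p = 0.00273). Each list holds calls in both directions on at least 1 day, and no shared control with the LEA members was tested.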

How the data were processed

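The authors deposited 1 linear intensity per channel and spot for 8 arrays of 2 colours, with no background or flag columns. Image software, background method and normalization are not given in the sources used here. Per the labels, plants were grown and embryos isolated by day, RNA was amplified, and Q0990 x bdl was in Cy5 on replicates 1 and 2 and in Cy3 on replicates 3 and 4 of each day. The deviations of the arrays from their day's mean pair replicates 1 and 3 against 2 and 4, unlike these labels, and both readings are balanced within each day. The deposited series table of log2 ratios (Q0990 x bdl to Q0990 x Col-0, column medians -0.01 to 0.02) equals spot ratios of these intensities and was not used further. 1 cell that held a letter was set missing, and 0 columns of per-sample values were left out.

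An offset of 50 was added, log2 ratios were loess-normalized within arrays (span 0.3, 4 iterations), and kept reporters (above the 95th percentile of 1743 blank spots in at least 4 of 16 signals) were averaged per gene model. The offset draws ratios of dim signals towards 0, so fitted folds of dim members can be smaller than those of their intensities. The plan had named genes, and gene codes are given as an alternative. limma 3.58.1 in R 4.3.3 fitted day 3, day 6 and dye effects over all arrays (lmFit, eBayes, at least 3 arrays per day). Benjamini-Hochberg adjustment ran over all models, and a call is an adjusted p under 0.05. Changes between days used lmscFit after Aquantile normalization (intraspot correlation 0.946, statmod 1.5.0) on reporters with values on all 8 arrays. Standard errors are those of the fits, and the number of arrays limits the precision. The fits were tested on simulated data. Symbols and neighbours come from the RefSeq table of TAIR10.1, which gives 24 of the 55 member genes a symbol. Deviations of same-numbered arrays of day 3 and day 6 correlated at -0.27 to -0.15. The split of replicates 1 and 3 from 2 and 4 runs in opposite directions on the 2 days. These correlations therefore cannot decide whether replicate numbers pair the days. Members called on either day with a fold of at least 1.5, or called between days in Q0990 x Col-0, were to be given with values on every array. Those of AT2G44060 model 2 are not printed, and those of COR15B and ERD10 model 1 only in part. The day 6 values of AT3G15280 are given as ranges. Other members shown in full were chosen after their values were seen. Members and gene lists were chosen with earlier results of these data known. Alternatives were the offset, normexp, no loess, filters, the brightest reporter, the dye term, fits by day, quantile normalization, a replicate block and leaving out each array.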

Additional observations from a re-analysis of the deposited data

Results flagged for a closer look

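The log2 ratio of LEA7 on day 3 replicate 4 was 0.0168, while the other day 3 arrays lay between -0.30 and -0.26. The log2 ratio of XERO1 on day 6 replicate 1 was -1.49, while the other day 6 arrays lay between -0.89 and -0.82. In each case the gap to the nearest array exceeded Dixon's 95% critical value as a share of the range. Of 27 groups of 4 arrays tested this way, 2 held such an array, and chance gives about 1 in 20.

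The check below covered the members called on either day with a fold of at least 1.5, or called between days in Q0990 x Col-0. Among them, cross effects that differed between days by limma's test of the difference (day 6 minus day 3, adjusted p under 0.05) were those of COR47 (log2 -2.14), ERD10 model 1 (-1.65), ERD10 model 2 (-1.16), AT2G46140 (-1.82), XERO1 (-0.90), LEA7 (-0.63), AT1G54410 (-0.36) and ERD14 (-0.23). In these 8 the ratio of Q0990 x bdl to Q0990 x Col-0 was lower on day 6. Outside that choice the test called SAG21 with a higher ratio on day 6 (log2 0.61). It also called AT3G22490 (-0.79), AT1G04560 (-0.57), FBS3 (-0.34) and AT2G21490 (-0.22) with a lower one. The test also called AT3G15280, but its fitted difference of -1.15 uses day 6 signals that were all below the blank spots and measures no change of its ratio. ERD14 lost its call under 12 alternatives and AT1G54410 under 7. Those of COR47, both ERD10 models, AT2G46140 and XERO1 kept their call under every alternative that gave them a value.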

How the results depend on the processing

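Of the 176 counts of members recomputed under alternatives, 149 stayed within 1.5 times the count first given, and the cause of the other changes was not tested unless the setting itself tests fewer models or arrays. With reporters required above the blank spots in all 16 signals, which leaves 12 members, the counts were 2 higher and 3 lower on day 3, 7 lower on day 6, 5 lower for the difference between days, 0 higher and 2 lower in Q0990 x bdl between days and 0 higher in Q0990 x Col-0. Over all models that filter left 10209 tested, with 5295 called on day 3 (8448 with the main filter), 5416 for the difference (8215), 3164 in Q0990 x bdl (6223) and 2444 in Q0990 x Col-0 (5195). With a replicate block the counts were 2 higher for the difference and 6 higher and 5 lower in Q0990 x Col-0 between days. The block changed 7 of 66 calls of named genes, ending those of ERD14 and AT1G54410 for the difference (limma adjusted p = 0.109 and 0.0953). Whether replicate numbers pair the arrays is not known. Each day fitted alone gave 2 members lower on day 3, and 5457 models called (8448 in the joint fit). The dye orientation read from the deviations, chosen after seeing the data, gave 2 higher for the difference. Leaving out 1 array gave, for higher and lower, 8 to 12 and 3 to 6 members on day 3, 2 to 3 and 10 to 13 on day 6, 1 to 2 and 7 to 13 for the difference, 0 to 2 and 5 to 7 in Q0990 x bdl between days, and 0 to 4 and 3 to 4 in Q0990 x Col-0. Without day 6 replicate 1 or 3, 4793 or 4759 models were called on day 6 (7324 with all arrays). Values that changed sign were never called: without 1 array the log2 value ranged from -0.10 to 0.20 for ERD10 model 2 in Q0990 x bdl between days (-0.28 with the filter on all signals), -0.23 to 0.11 for LEA7 and -0.85 to 0.11 for DI21 in Q0990 x Col-0 between days, -0.23 to 0.00324 for AT2G18340 and -0.19 to 0.00101 for DI21 for the difference, -0.10 to 0.14 for COR15B and -0.0196 to 0.23 for AT3G15280 on day 6, and -0.0342 to 0.12 for AT2G44060 model 2 on day 3. With no offset the difference of AT2G18340 passed (log2 -0.54, limma adjusted p = 0.0172). Signals near the blank spots limit, among others, COR15B, LEA14, AT3G15670, AT5G44310 model 2 and the day 6 values of AT3G53040, AT3G15280, AT2G18340, LEA7, AT3G22490 and AT1G54410.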

Other observations

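Of 6 genes of published LEA families that the description rule missed, 4 were tested on the same arrays. RAB28, of the SMP family, had a log2 ratio of 0.07 on day 3 (limma adjusted p = 0.663) and was 1.64-fold lower in Q0990 x bdl on day 6 (log2 -0.71, limma adjusted p = 0.00190). AT2G23110 and AT2G23120 carry neighbouring codes and went opposite ways on day 6. AT2G23110 was 1.75-fold lower (log2 -0.80, limma adjusted p = 0.00113) and AT2G23120 1.57-fold higher in Q0990 x bdl (log2 0.65, limma adjusted p = 0.000212). On day 3 AT2G23110 had a log2 ratio of 0.17 (limma adjusted p = 0.271) and AT2G23120 one of -0.19 (limma adjusted p = 0.0429). The difference between days passed for both, at -0.97 for AT2G23110 and 0.85 for AT2G23120 (limma adjusted p = 0.00194 and 0.000288). AT3G02480, the fourth of these, lay at 0.04 on day 3 and 0.00 on day 6 (limma adjusted p = 0.746 and 0.972), and none of its day 6 signals passed the blank spots.

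Among the members too dim to test, 3 are given here that were chosen after their values were seen. The day 6 intensities of AT4G38410, a dehydrin, were 64.7, 45.5, 65.1 and 69.5 in Q0990 x bdl, against 265, 95.6, 125 and 131 in Q0990 x Col-0, and 1 of these 8 signals passed the blank spots. Those of AT5G44310 model 1 were 247, 38.1, 53.2 and 67.9 in Q0990 x bdl, against 78.1, 4.40, 19.8 and 14.5 in Q0990 x Col-0, and replicate 1 alone passed the blank spots, in both channels. ECP63 passed them on the same array alone, with 197 in Q0990 x bdl and 229.8 in Q0990 x Col-0. No test was made of these values.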
